A study of Mus musculus with 10 samples.

Results

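Kinesins are motor proteins that use ATP to move along microtubules or to take microtubule ends apart. Kinesin light chains and the accessory subunit Kifap3 join motor subunits to their cargo. In a fully grown oocyte the microtubules are about to be rebuilt into a meiotic spindle, which forms without centrioles, and kinesins slide its microtubules, move chromosomes and complete the division that extrudes the polar body. The kinesin genes were examined here in mouse oocytes with RNA interference against basonuclin (Bnc1), a zinc finger protein of germ cells and skin. The members were taken by gene symbol, as every gene named Kif or Kifc with its number, Kifap3 or Klc with its number. This gave 44 of the 18193 genes on the array. Cenpe, a kinesin motor with another kind of symbol, is not among them and is counted below with the spindle and midzone partners.

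Each sample held RNA of about 50 fully grown oocytes at the germinal vesicle stage, taken from 1 mouse and hybridised to 1 array. The first group was 6 RNAi-transgenic samples, whose transgene lowers Bnc1 mRNA in oocytes only, with replicate numbers 4, 5, 6, 11, 12 and 13. The other group was 4 non-transgenic samples, with replicate numbers 1, 2, 7 and 8. Strain, age, the promoter that drives the transgene and the number of transgenic lines are not given in the sources used here.

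Values are log2 intensities, and each gene is represented by the probe set (the group of array probes for a transcript) with the highest mean over all 10 samples. A gene was tested where that probe set was above log2 5 in at least 4 arrays. Differences are log2 values of transgenic minus non-transgenic oocytes, tested with limma over all 10589 genes that passed the filter, and "rose" and "fell" mean a Benjamini-Hochberg adjusted p below 0.05. Because the arrays give no absolute scale, levels are compared between samples of 1 gene and never between genes. In such bulk samples, fewer cells of a type and less RNA per cell cannot be told apart.

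Bnc1 matched the labels in every sample. It was at log2 3.67, 3.77 and 4.26 (lowest, median and highest) in transgenic oocytes, against 11.40, 11.51, 11.61 and 11.76 in non-transgenic oocytes. This is at least 95.1-fold lower when the transgenic samples are set to the filter level (limma adjusted p = 2.63e-11). By exact permutation (two-sided) the p was 0.00476, the smallest that 6 against 4 samples allow. Bnc1 passed the filter through the non-transgenic samples alone. Both p-values rest on transgenic values below the level and add no separate support. All 13 oocyte markers on the array, among them Zp3, Gdf9 and Nlrp5, passed the filter, 1 rose and 2 fell. Of the granulosa and cumulus markers, 7 of 13 passed the filter, 2 rose and 0 fell, with a summed intensity of 1620 to 2618 in transgenic and 1659 to 1899 in non-transgenic samples. Amh, Amhr2, Inhba, Has2 and Ptgs2 stayed below the filter level on all arrays. Of the stroma and vessel markers, 4 of 9 passed the filter, 3 rose and 1 fell (sums of 419.2 to 525.5 and 279.6 to 388.6). These sums were higher in transgenic samples, without overlap between the groups. Col1a2, Col3a1, Pecam1 and Cdh5 stayed below the level. Of the neuron markers, 3 of 7 passed, 1 rose and 0 fell (sums of 1926 to 3002 and 2464 to 3294), with Snap25, Stmn2 and Nefl below the level. Of the blood markers, 3 of 6 passed, 1 rose and 1 fell (sums of 2765 to 4429 and 3367 to 4206), with Ptprc, Hba-a1 and Cd74 below the level. The sums are of linear intensities and so weigh the brightest marker most. Its mean was log2 9.90 for granulosa and cumulus, 7.16 for stroma and vessels, 11.17 for neurons and 10.94 for blood. Beside these marker counts, 18.9% of all genes tested rose and 18.3% fell. The part of these cells in the kinesin results was not tested. Non-transgenic replicate 1 stood somewhat apart, with correlations of 0.978 to 0.982 to the other non-transgenic arrays, which correlated at 0.987 to 0.989 with each other. Transgenic replicate 6 had the highest 3′ to 5′ difference of the actin control probes, at log2 5.13 against 3.40 to 3.93 on the other transgenic arrays and 3.44 to 4.01 on the non-transgenic arrays.

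Of the 44 kinesin genes, 35 passed the filter. Among them 9 rose, 5 fell and 21 did not pass the test. The 14 genes called are 40% of those tested, near the 37.2% called among all genes. The kinesin genes taken by symbol thus changed about as often as the rest of the oocyte mRNA pool. By direction, 18.9% of all genes rose and 18.3% fell. The median difference of the 35 genes was 0.00, and their median size without the sign was 0.22, beside -0.03 and 0.24 for all genes tested. The groups did not overlap for 7 kinesin genes that were higher and 3 that were lower in transgenic oocytes, against 14.8% and 13.1% of all genes, and so for 28.6% of the kinesin genes tested in either direction, against 28% of all genes. The count of kinesin genes that fell was 3 in each fit without transgenic replicate 5, 11, 12 or 13 or non-transgenic replicate 2. The kinesin genes that rose numbered 6 without non-transgenic replicate 1 or 2. Over the fits with 1 sample left out, 1778 to 1955 of all genes rose and 1564 to 1912 fell.

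By the fitted difference, 4 kinesin genes rose and 1 fell by 2-fold or more, where 6.63% and 2.35% of all genes did so. The genes that rose were Kif26b, Kif1b, Kif9 and Kif21b, and the gene that fell was Kif24. Kif21b lies at this limit, since its bound with the dim sample set to the filter level is 1.86-fold, and its difference was 0.72 without non-transgenic replicate 2. They come from 5 different kinesin families.

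**Figure D1:**
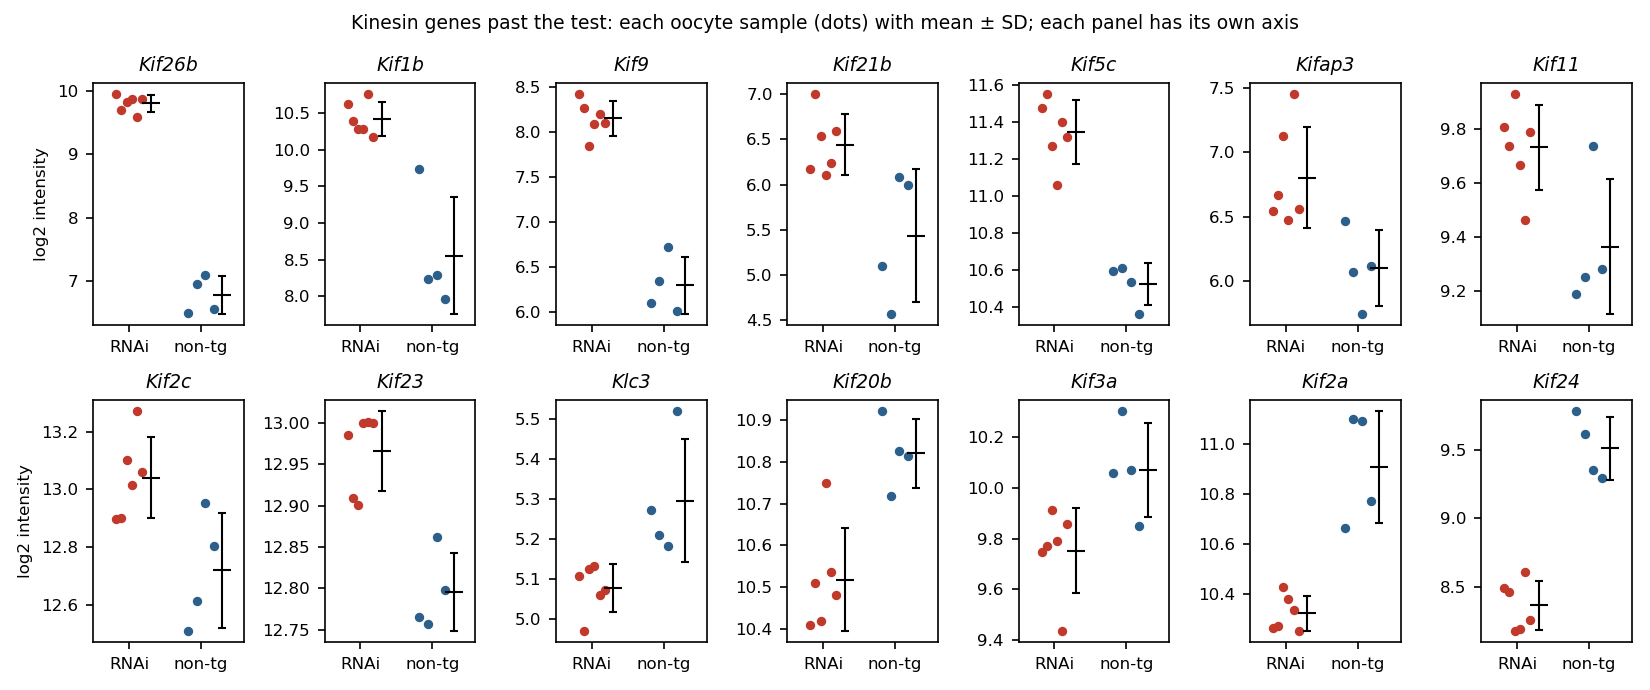
Log2 intensity (vertical axes, a separate scale in each panel) of the 14 kinesin genes past the test in 6 RNAi-transgenic samples (RNAi, left, red) and 4 non-transgenic samples (non-tg, right, blue), with mean ± SD as bars. Kif26b separates the groups by the widest gap, while Kif11, Kif2c, Kif3a and Kif20b overlap between groups.

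Kif26b had the largest difference of any kinesin gene tested. It encodes an atypical member of the kinesin-11 family whose motor domain is thought not to use ATP, and it is known from kidney development in mice. It was at log2 9.59, 9.86 and 9.96 (lowest, median and highest) in transgenic oocytes, against 6.49, 6.96, 7.10 and 6.56 in non-transgenic oocytes. All 6 transgenic samples lay well above all 4 non-transgenic samples. The means were 9.81 ± 0.13 (SD, n = 6) in transgenic and 6.77 ± 0.30 (SD, n = 4) in non-transgenic oocytes, a rise of 3.03 (SE 0.13, limma adjusted p = 3.10e-08) or 8.19-fold. Its relative Kif26a, of the same family, was at 5.71 in transgenic and 5.66 in non-transgenic oocytes and did not pass (95% interval of the difference -0.17 to 0.28).

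The RefSeq stretches upstream of Kif26b, Kif9, Kif1b and Kif24 are shown because these 4 genes had differences of at least 2-fold and an entry in the table used. Each is the 250 bases before the transcript start, 5′ to 3′ on the gene's strand (build GRCm38.p6). Capitals mark the motifs searched on both strands. These were the TATA box with the letters TATAAA, the CCAAT box as spelled in its name, the GC box, bound by Sp family factors, with the letters GGGCGG, the E-box of basic helix-loop-helix factors with the letters CACGTG, and the CHR element found in many cell cycle promoters, searched as TTTGAA.
Kif26b, chr1:178528875-178529124, plus strand: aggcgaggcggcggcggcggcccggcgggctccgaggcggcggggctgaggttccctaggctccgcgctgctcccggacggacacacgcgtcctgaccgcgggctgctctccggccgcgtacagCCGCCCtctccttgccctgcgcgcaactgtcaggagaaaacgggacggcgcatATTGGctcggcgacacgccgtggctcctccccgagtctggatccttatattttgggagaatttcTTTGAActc
Kif9, chr9:110476708-110476957, plus strand: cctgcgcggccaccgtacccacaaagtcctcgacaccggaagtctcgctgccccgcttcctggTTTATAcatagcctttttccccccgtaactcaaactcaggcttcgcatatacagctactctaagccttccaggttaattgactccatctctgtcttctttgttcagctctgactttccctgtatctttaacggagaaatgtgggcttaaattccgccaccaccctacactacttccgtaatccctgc
Kif1b, chr4:149307734-149307983, minus strand: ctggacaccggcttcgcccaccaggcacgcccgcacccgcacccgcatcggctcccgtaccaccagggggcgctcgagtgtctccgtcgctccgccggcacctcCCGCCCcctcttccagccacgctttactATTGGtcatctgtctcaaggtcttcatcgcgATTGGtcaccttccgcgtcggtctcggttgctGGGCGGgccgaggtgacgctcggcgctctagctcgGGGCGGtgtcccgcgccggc
Kif24, chr4:41464849-41465098, minus strand: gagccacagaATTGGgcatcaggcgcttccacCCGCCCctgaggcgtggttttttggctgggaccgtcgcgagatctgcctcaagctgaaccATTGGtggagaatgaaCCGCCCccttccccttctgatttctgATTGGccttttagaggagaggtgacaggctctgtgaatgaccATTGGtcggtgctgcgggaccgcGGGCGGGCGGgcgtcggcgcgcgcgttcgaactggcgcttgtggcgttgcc

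These stretches differ in make-up. G and C make up 68.4% of the Kif26b stretch, 70% of that of Kif1b and 62.4% of that of Kif24, but 50.8% of that of Kif9, beside a median of 52.0% over 27025 such stretches. Kif24, which fell, holds 4 CCAAT boxes and 4 GC boxes, 2 of which overlap. Kif1b, which rose, holds 2 CCAAT and 3 GC boxes. Kif26b holds 1 of each and 1 CHR element. Kif9 holds a single TATA box and no other motif searched. Over all stretches, a CCAAT box occurs in 34.5%, a GC box in 33.0%, a TATA box in 13.0%, a CHR element in 16.3% and an E-box in 6.04%. Of 36 kinesin genes with a stretch, 18 hold a CCAAT box, 22 a GC box, 7 a CHR element, 4 a TATA box and 1 an E-box.

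Among kinesins of cargo transport, 3 of 13 tested genes rose and 1 fell (30.8% called, against 37.2% of all genes). Kif1b, a kinesin-3 motor that carries mitochondria and precursors of synaptic vesicles in neurons, was at log2 10.17, 10.33 and 10.76 (lowest, median and highest) in transgenic oocytes, against 9.73, 8.24, 8.28 and 7.96 in non-transgenic oocytes. Non-transgenic replicate 1 was the highest of its group, still below every transgenic sample. The rise of Kif1b was 1.86 (SE 0.29, limma adjusted p = 5.40e-04), or 3.63-fold, and 2.25 without non-transgenic replicate 1.

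Kif21b, a kinesin-4 motor that is known in neurons and immune cells and damps microtubule growth, was dim in both groups. It was at log2 6.10, 6.39 and 7.00 in transgenic oocytes, against 5.10, 4.57, 6.09 and 5.99 in non-transgenic oocytes. The groups only just failed to overlap. With the 1 non-transgenic sample below the filter level set to it, the rise is at least 1.86-fold (limma adjusted p = 0.0198). The difference was 1.74 within the samples numbered 1 to 6 and 0.27 (adjusted p = 0.314) within those numbered 7 to 13, and the call was lost when non-transgenic replicate 1 or 2 was left out (adjusted p = 0.0573 and 0.0532).

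Kif5c is 1 of 3 genes for the heavy chain of kinesin-1, the main motor of long-range transport, and is most abundant in neurons. It was at log2 11.06, 11.36 and 11.55 in transgenic oocytes, against 10.59, 10.61, 10.54 and 10.36 in non-transgenic oocytes. Every transgenic sample was above every non-transgenic sample, and the rise was 0.82 (SE 0.10, limma adjusted p = 7.34e-05) or 1.76-fold. Kif5b, the form found in most tissues, was at 9.94 in transgenic and 10.21 in non-transgenic oocytes and did not pass (difference -0.27, 95% interval -0.63 to 0.09). Kif5a, the third form, was below the filter level in all samples.

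The light chains of kinesin-1, which bind cargo, showed at most a slight change. Klc3, known from the sperm tail of rodents, lay at the filter level, at log2 4.97, 5.09 and 5.13 in transgenic oocytes against 5.27, 5.21, 5.18 and 5.52 in non-transgenic oocytes. It fell by 0.22 (SE 0.08, limma adjusted p = 0.0477), at least 1.16-fold lower. This call was lost in 9 of 10 fits with 1 sample left out (adjusted p from 0.0520 to 0.125, kept only without non-transgenic replicate 7) after median centring (adjusted p = 0.117) and with the range of replicate numbers as a term (0.0528). It was also lost with robust eBayes, with eBayes lacking the trend, without a filter and with each probe set by itself (adjusted p from 0.0504 to 0.0718). Klc1 differed by 0.01 (95% interval -0.35 to 0.37) and Klc4 by -0.04 (-0.22 to 0.15), and neither passed.

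The other transport kinesins did not pass over all samples. Kif13a, which moves endosomes, differed by 0.18, with 0.54 (limma adjusted p = 0.0437) within samples numbered 7 to 13 and -0.19 (0.604) within 1 to 6. Its relative Kif13b differed by 0.11 and Kif1c, linked to the Golgi and to focal adhesions, by 0.16. Kif16b, a motor of early endosomes, differed by -0.15, Kifc2 by -0.20 and Kifc3, a motor toward microtubule minus ends in epithelia, by 0.00. Over all samples the smallest adjusted p among them and Kif5b was 0.224, though Kifc2 passed without non-transgenic replicate 7 (-0.34, limma adjusted p = 0.0299), and the intervals of Kif13a and Kif13b ran from -0.24 to 0.59 and from -0.32 to 0.53.

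**Figure D2:**
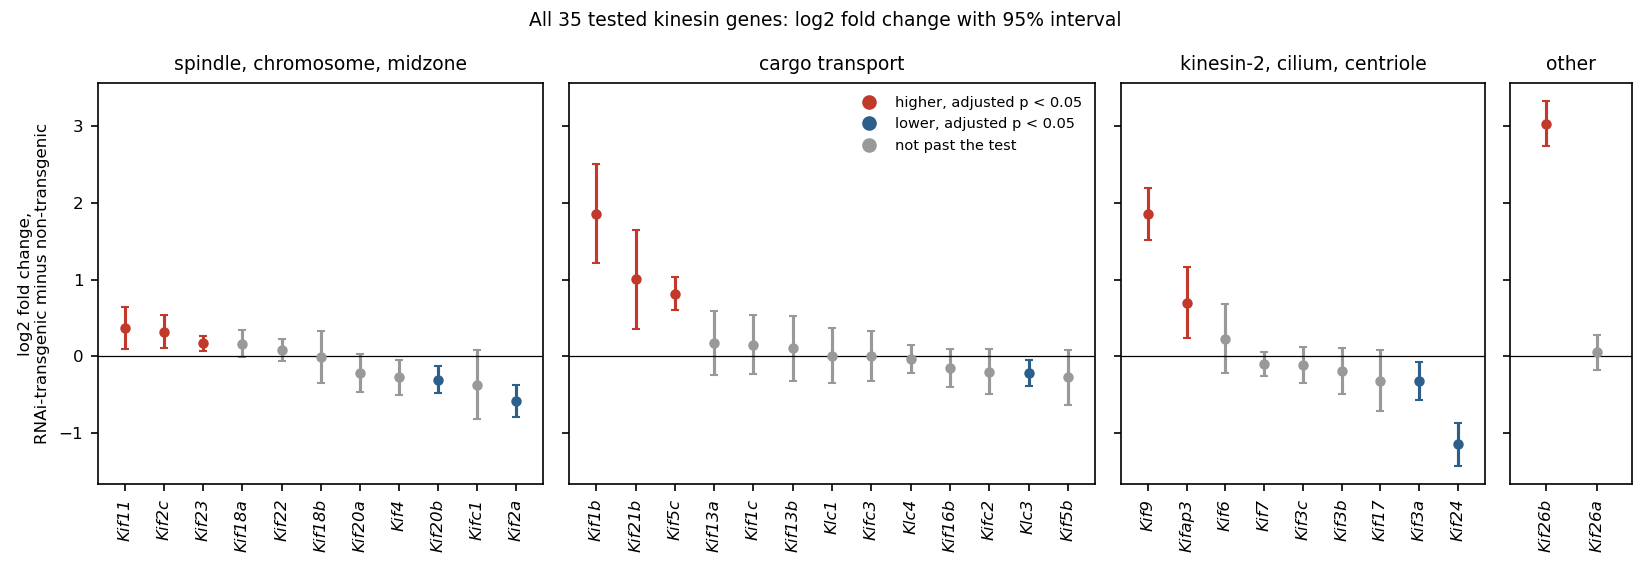
Log2 fold change of transgenic over non-transgenic oocytes (vertical axis) with its 95% interval for the 35 tested kinesin genes, ordered within 4 groups by role and coloured by the test. The spindle group stays between -0.58 and 0.37, while the transport, cilium and other groups each hold a gene above 1.8.

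Among kinesin-2 subunits and kinesins of cilia and centrioles, 2 of 9 tested genes rose and 2 fell (44.4% called, against 37.2% of all genes). Kif9, a kinesin-9 motor of motile cilia and of the sperm flagellum, was at log2 7.85, 8.15 and 8.43 in transgenic oocytes, against 6.10, 6.34, 6.73 and 6.01 in non-transgenic oocytes. The groups were apart by more than 1 log2 unit, with a rise of 1.86 (SE 0.15, limma adjusted p = 4.23e-06) or 3.63-fold. Kif6, of the same family, was near the filter level, at 5.25 in transgenic and 5.02 in non-transgenic oocytes, and did not pass (95% interval -0.21 to 0.68).

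Kif24 fell the most of all kinesin genes. It encodes a kinesin-13 that trims microtubules at centrioles and restrains the growth of cilia. It was at log2 8.17, 8.36 and 8.61 in transgenic oocytes, against 9.78, 9.62, 9.35 and 9.29 in non-transgenic oocytes. No sample of a group reached the other group, and the fall was -1.15 (SE 0.13, limma adjusted p = 4.24e-05) or 2.22-fold.

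Kif3a, Kif3b and Kifap3 encode the 3 subunits of the kinesin-2 complex that drives transport inside cilia, and they did not move together. Kifap3, the subunit that binds cargo, was at log2 6.48, 6.61 and 7.45 in transgenic oocytes, against 6.46, 6.07, 5.75 and 6.12 in non-transgenic oocytes, a rise of 0.70 (SE 0.21, limma adjusted p = 0.0210). Its lowest transgenic sample was barely above non-transgenic replicate 1, and the call was lost without non-transgenic replicate 7 (adjusted p = 0.0677). The motor gene Kif3a was at 9.43, 9.78 and 9.91 in transgenic oocytes, against 10.06, 10.30, 10.07 and 9.85 in non-transgenic oocytes.

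Kif3a thus fell by 0.32 (SE 0.11, limma adjusted p = 0.0443) with overlap between the groups. The call was lost in 8 of 10 fits with 1 sample left out (adjusted p from 0.0539 to 0.136). It was kept without transgenic replicate 6 or non-transgenic replicate 8. Quantile normalization (adjusted p = 0.0599), median centring (0.0721) and the fit without a filter also lost it. Kif3b, the partner motor, differed by -0.19 (95% interval -0.49 to 0.12) and Kif3c, another partner of Kif3a, by -0.11 (-0.35 to 0.13), and neither passed.

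Kif17, the homodimeric kinesin-2 known from dendrites and sperm cells, varied among transgenic samples, from 10.71 to 11.80, against 11.33 to 11.53 in non-transgenic samples. It did not pass over all samples (difference -0.31, adjusted p = 0.201), but did without transgenic replicate 4 (-0.44, limma adjusted p = 0.0222). Within samples numbered 7 to 13 it was lower in transgenic oocytes by -0.66 (limma adjusted p = 0.00884), and within those numbered 1 to 6 the difference was 0.03. Kif7, a regulator of Hedgehog signalling at the tip of the cilium, differed by -0.10 and did not pass.

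Of the spindle, chromosome and midzone kinesins, 3 of 11 tested genes rose and 2 fell (45.5% called, against 37.2% of all genes), none by 2-fold. The groups did not overlap for 18.2% of these 11 genes, against 28% of all genes. Their differences ran from -0.58 to 0.37. Kif2a, a kinesin-13 that removes tubulin at spindle poles, had the largest of these. It was at log2 10.25, 10.31 and 10.43 in transgenic oocytes, against 10.66, 11.10, 11.09 and 10.77 in non-transgenic oocytes.

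All transgenic samples of Kif2a lay below all non-transgenic samples, with a fall of 0.58 (SE 0.10, limma adjusted p = 7.48e-04). Kif2c, its relative that takes microtubules apart at centromeres, moved the other way. It was at 12.90, 13.04 and 13.27 in transgenic oocytes, against 12.51, 12.61, 12.95 and 12.80 in non-transgenic oocytes. The groups overlapped, the rise was 0.32 (SE 0.10, limma adjusted p = 0.0235), and the call was lost without non-transgenic replicate 1 or 2 (adjusted p = 0.0688 and 0.0695).

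Kif11, the kinesin-5 motor that pushes spindle poles apart, was at log2 9.46, 9.77 and 9.93 in transgenic oocytes, against 9.19, 9.25, 9.74 and 9.28 in non-transgenic oocytes. Non-transgenic replicate 7 lay among the transgenic samples. The rise was 0.37 (SE 0.12, limma adjusted p = 0.0363). The call was lost in 7 of 10 fits with 1 sample left out (adjusted p from 0.0603 to 0.0960). It was kept without transgenic replicate 11 or 12 or non-transgenic replicate 7. The fit without a filter also lost it (limma adjusted p = 0.0584). Within samples numbered 1 to 6 the difference was 0.61, and within 7 to 13 it was 0.13 (limma adjusted p = 0.650).

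The kinesin-6 motors act at the spindle midzone and in cytokinesis. Kif23, a subunit of centralspindlin, was at log2 12.90, 12.99 and 13.00 in transgenic oocytes, against 12.77, 12.76, 12.86 and 12.80 in non-transgenic oocytes. The groups did not overlap, but the rise was only 0.17 (SE 0.04, limma adjusted p = 0.0120). Kif20b, which acts in the last step of cytokinesis, was at 10.41, 10.50 and 10.75 in transgenic oocytes, against 10.92, 10.72, 10.83 and 10.82 in non-transgenic oocytes.

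Kif20b overlapped between groups in transgenic replicate 11 alone and fell by 0.30 (SE 0.08, limma adjusted p = 0.0118). Kif20a, which brings Aurora B to the midzone, differed by -0.22 and did not pass (95% interval -0.47 to 0.03).

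The remaining spindle kinesins did not pass. Kif4, a motor on chromosome arms that also sets the length of the midzone, came closest, at log2 11.24, 11.37 and 11.46 in transgenic oocytes against 11.24, 11.71, 11.78 and 11.77 in non-transgenic oocytes. Non-transgenic replicate 1 was low here. Over all samples the difference was -0.27 (adjusted p = 0.0626), and without non-transgenic replicate 1 it was -0.40 and passed (limma adjusted p = 9.75e-04). With all samples it also passed with the range of replicate numbers as a term (adjusted p = 0.0376) and after quantile normalization (0.0381), and within samples numbered 7 to 13 (-0.37, adjusted p = 0.0232). Kif22, which also binds chromosomes, differed by 0.08 (95% interval -0.06 to 0.23), Kif18a, which aligns chromosomes, by 0.16 (-0.01 to 0.34) and Kif18b, at astral microtubule ends, by -0.01 (-0.35 to 0.33). Kifc1, a minus-end motor that bundles spindle microtubules, differed by -0.37 (-0.82 to 0.08), and its probe set is of the kind that can match more than 1 transcript, here possibly also the related gene Kifc5b.

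The other 9 kinesin genes were below the filter and so not among the 35 tested. They are Kif1a, Kif5a and Kif21a of neuronal transport, Kif14, Kif15 and Kif2b of dividing cells, Kif27 of cilia, and Kif12 and Kif28. Kif27 lay between log2 3.94 and 4.17 in transgenic and between 3.93 and 4.16 in non-transgenic samples. None of the 9 reached the filter level on any array. In the fit without a filter, 1 of them passed, Kif14, which acts in cytokinesis. It was at 3.31 to 3.39 in transgenic and 3.35 to 4.00 in non-transgenic samples (difference -0.30, limma adjusted p = 0.0494), with overlap between the groups and all values below the level.

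Probe sets of the same gene did not always move together. The kinesin genes had 111 probe sets in all, of which 64 passed the filter and 19 changed when each was tested by itself, where 34% of all probe sets did. For Kif1b, 3 of 6 tested probe sets rose, by 1.86, 1.80 and 2.41, and the groups did not overlap in any of these. The other 3 differed by 0.12, 0.25 and 0.06 and did not pass (limma adjusted p = 0.331 for the lowest). Kif2a and Kif3a gave the same direction throughout, with all 3 tested probe sets of Kif2a lower (-0.58, -0.50 and -0.85) and 3 of 4 of Kif3a past the test (-0.32, -0.28 and -0.51).

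For other genes the call rests on a single probe set. Kif26b, Kif9 and Klc3 have only 1 probe set, so no other could be set beside it. The other probe set of Kif21b and that of Kifap3 were below the filter. The second probe set of Kif5c differed by -0.40 (SE 0.25, limma adjusted p = 0.250), opposite in sign to the first. The third of Kif11 differed by -0.50 (SE 0.31), also opposite to its first, and the second of Kif23 by -0.04 (SE 0.23). The second probe set of Kif24 lay near the filter level and differed by -0.01. The other 2 tested probe sets of Kif2c differed by 0.13 and 0.04, and its first is of a kind with probes that can match unrelated transcripts. The probe sets used for Kif13a and Kif22, which did not pass, are of this kind too. That of Kif16b is of the kind that can match more than 1 transcript. Its other tested probe set differed by 0.09, opposite in sign, and did not pass. With the mean of all probe sets of a gene, Kif5c, Kif11, Kif2c and Kif20b kept their sign without passing, and Kif23 turned to -0.02. The rise of Kif1b was then 1.00 and the fall of Kif24 -0.45.

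**Figure D3:**
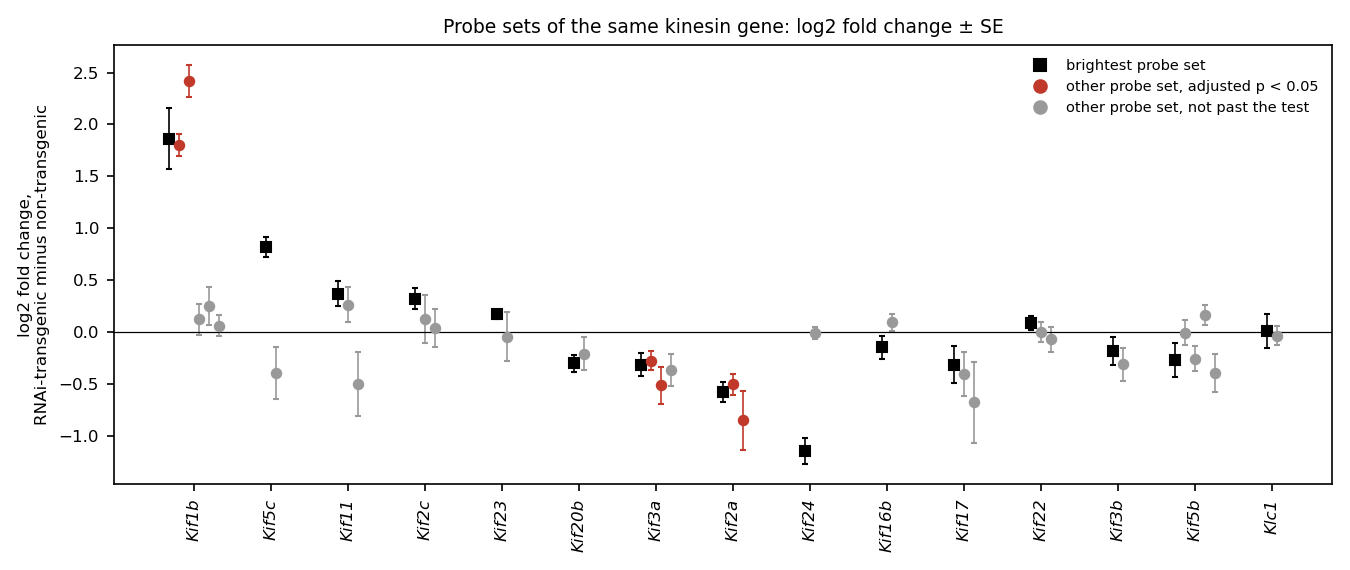
Log2 fold change of transgenic over non-transgenic oocytes (vertical axis) ± SE for each tested probe set of the 15 kinesin genes with more than 1, in order of intensity from left to right within a gene. Squares are the probe sets used for the gene, red circles other probe sets past the test and grey circles those that did not pass. Kif1b splits into 3 probe sets near 2 and 3 near 0, and Kif2a and Kif3a stay below 0 throughout.

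The samples carry replicate numbers in 2 ranges, 1 to 6 and 7 to 13, each with both groups, and no label calls these batches. All 14 called kinesin genes kept their sign within each range. Within the range 1 to 6 alone, 6 kinesin genes rose and 1 fell, and within the range 7 to 13 alone, 5 rose and 4 fell. Each range holds 2 non-transgenic and 3 transgenic samples. Of all genes, 18.1% were called within 1 to 6 and 21.4% within 7 to 13. Of the 14 called genes, 7 passed again within 1 to 6 and 6 within 7 to 13, where Kif4, Kif17 and Kif13a passed in addition. Kif26b was 3.11 and 2.96 higher in the lower and the higher range, Kif9 1.96 and 1.76 and Kif5c 0.83 and 0.81. Kif1b did not pass within 1 to 6 (1.44, limma adjusted p = 0.0775) but did within 7 to 13 (2.28, 0.00156). Kif2a also passed only within 7 to 13. Kif20b, Kif23, Kif3a, Kifap3 and Klc3 passed within neither range.

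**Figure D4:**
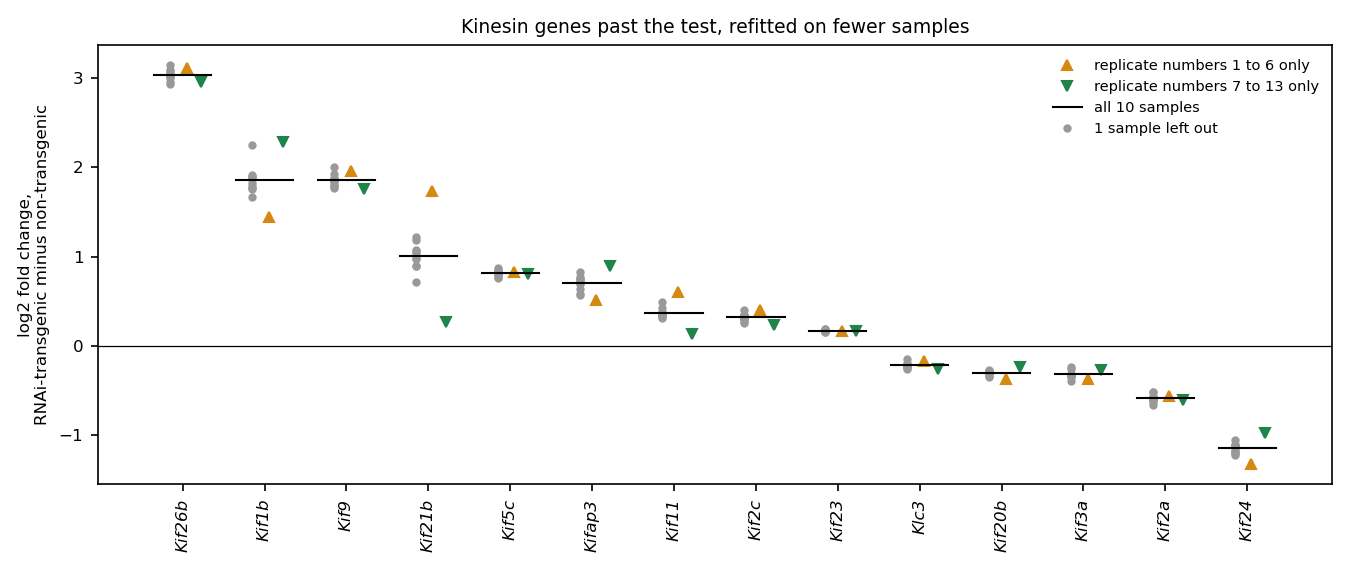
Log2 fold change of transgenic over non-transgenic oocytes (vertical axis) for the 14 called kinesin genes, with all 10 samples (lines), with 1 sample left out (grey) and within samples numbered 1 to 6 or 7 to 13 (triangles). All stay on their side of 0, and Kif21b differs most between the 2 ranges, at 1.74 and 0.27.

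Counted over both directions, genes that work with kinesins changed at about the rate of all genes, of which 37.2% were called. By direction, 18.9% of all genes rose and 18.3% fell, with a median difference of -0.03. Of dynein and dynactin, the motor of the opposite direction and its activator, 3 of 21 tested genes rose and 5 fell (38.1% called, median difference -0.07). The dynein light chain gene Dynlt3 rose by 0.82 (SE 0.08) and the dynactin gene Dctn3 by 0.76, a call lost without non-transgenic replicate 2 (adjusted p = 0.0520). Dync1i1, a dynein intermediate chain, was at least 2.45-fold higher, with 1 non-transgenic sample set to the filter level. Dynll1, another light chain, fell by 0.54 (SE 0.08), and the dynactin genes Dctn5 and Actr1a differed by -0.45 and -0.27, the call of Dctn5 being lost without non-transgenic replicate 7 (adjusted p = 0.0668). The number that fell was 1 after median centring, 3 without transgenic replicate 5 and 2 without non-transgenic replicate 7. In these fits 1455, 1716 and 1564 of all genes fell, against 1943 in the main fit.

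Of kinesin adaptors and cargo partners, 4 of 16 rose and 2 fell (37.5% called, median -0.01). Madd, which links Kif1b to vesicles, rose by 0.64 (SE 0.08, limma adjusted p = 8.70e-05), Fez2 of a family of kinesin-1 adaptors by 1.13, and Trak1, which links kinesin-1 to mitochondria, by 0.45. Clstn1, a membrane protein that binds kinesin light chains, fell by 1.08 (SE 0.13), and Cask, a scaffold of Kif17 cargo in neurons, fell by 0.56.

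Of spindle and midzone partners, 3 of 29 rose and 8 fell (37.9% called, median -0.04). These 29 include Cenpe, itself a kinesin motor, which differed by -0.02 and did not pass (limma adjusted p = 0.903). Racgap1, the partner of Kif23 in centralspindlin, rose by 0.80 (SE 0.14, limma adjusted p = 9.60e-04), Aurkc, a meiotic Aurora kinase, by 1.00 and Mapre2, of a family of microtubule end-binding proteins, by 0.25. The kinetochore genes Ndc80 and Nuf2 fell, with differences of -1.14 and -0.58, as did Birc5 of the chromosomal passenger complex, with -0.19.

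Of intraflagellar transport genes, whose products are moved by the Kif3 motor in cilia, 2 of 18 rose and 6 fell (44.4% called, median -0.17). Of their differences, passed or not, 13 were below 0 and 5 above, where 5719 of all 10589 genes were below 0 and 4870 above. Ttc21b averaged 6.94 in transgenic oocytes, while none of the non-transgenic samples reached the filter level, and was at least 3.84-fold higher. It passed the filter through the transgenic samples alone. Its limma adjusted p of 4.02e-06 rests on non-transgenic values below the level and adds no separate support. Traf3ip1 rose by 0.81, while Ift80, Ift22 and Ift20 fell, with differences of -0.84, -0.60 and -0.55.

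**Figure D5:**
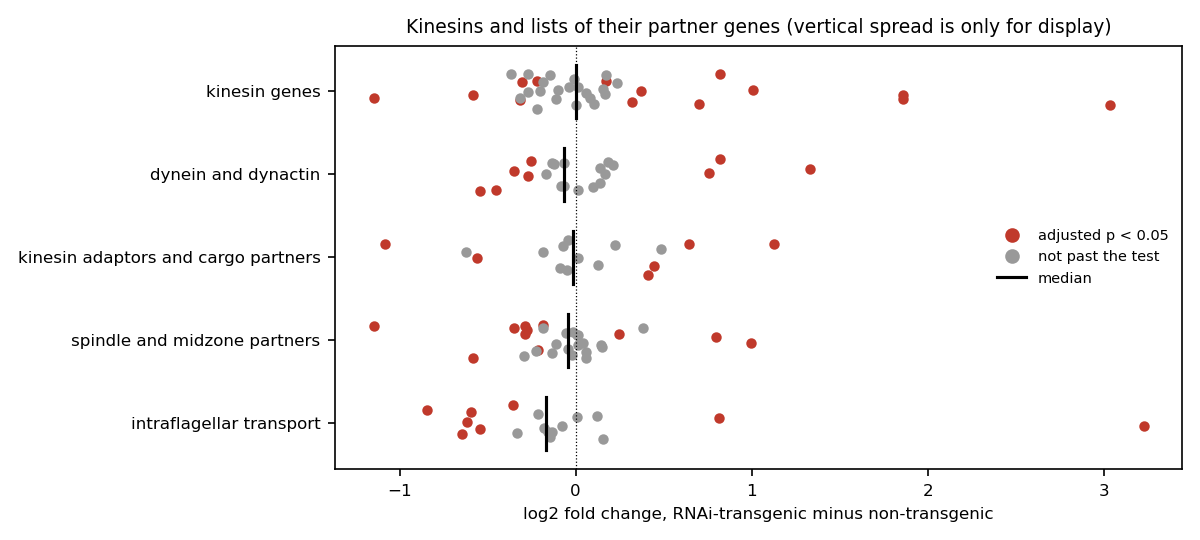
Log2 fold change of transgenic over non-transgenic oocytes (horizontal axis) for each tested gene of the kinesin family and of 4 lists of partner genes, with genes past the test in red and the median of each list as a line. The medians lie between -0.17 and 0.00, and each list holds genes past the test on both sides of 0.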

How the data were processed

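Per the submitters' processing notes the authors used GCRMA; its version is not stated there. They deposited 1 normalized intensity per probe set and array, on a linear scale, for 45101 probe sets, 64 of them controls. Of these, 34945 map to a single gene in the platform's annotation, 932 to more than 1, and 9211 are not listed. GCRMA draws dim probe sets toward a floor, so their folds are uncertain. No detection flag was used.

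Intensities were put on the log2 scale without new normalization. Groups were compared with limma 3.58.1 (lmFit, eBayes with trend) in R 4.3.3, with Benjamini-Hochberg adjustment over 10589 genes, and the code was tested on simulated data. Where samples of the dimmer group were below log2 5, they were set to it and the fold is given as at least that large. The precision is limited by the number of arrays. The members, the partner lists, the role groups and the tests were chosen with earlier results of these data known. Called members are given in every sample or by lowest, median and highest. Partner lists are given by up to 3 genes in each direction by adjusted p, and Cenpe in addition. Promoter stretches are from RefSeq (GRCm38.p6), 36 of 44 members matched, with the start furthest upstream. Figures used matplotlib 3.10.9.

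The fit was repeated without a filter and with the level at 7; after quantile normalization or median centring; with 16 added before the logarithm; with eBayes robust or lacking the trend; with a term for the range of replicate numbers, or within each range; with each sample left out; and with the mean of probe sets or each probe set by itself. Leaving out non-transgenic replicate 1 and transgenic replicate 6 together was added after seeing the data.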

Additional observations from a re-analysis of the deposited data

Results flagged for a closer look

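Among the 35 tested kinesin genes, 70 groups of samples were searched for a sample with a wide gap to its nearest neighbour, and 9 were found, where chance gives about 1 in 20 groups. Kif11 was at log2 9.74 in non-transgenic replicate 7, with the next at 9.28, and its rise is 0.49 without that sample. Kif4 was at 11.24 in non-transgenic replicate 1, with the next at 11.71. Kif13b was at 5.75 in non-transgenic replicate 1, with the next at 6.59, and at 6.11 in transgenic replicate 11, with the next at 6.54. Kif20b was at 10.75 in transgenic replicate 11, with the next at 10.54. In transgenic replicate 12, Kif3a was at 9.43 (next 9.75) and Kif16b at 8.23 (next 8.60). Kif5b was at 9.33 in transgenic replicate 6 (next 9.95), and Klc1 at 9.20 in transgenic replicate 13 (next 8.79). The part of any single array in these values beyond the fits without it was not tested.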

How the results depend on the processing

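Over the fits with 1 sample left out, 6 to 9 kinesin genes rose and 3 to 5 fell. Of all genes, 1778 to 1955 rose and 1564 to 1912 fell. Dynein and dynactin genes gave 2 to 5 lower, adaptors 3 to 4 higher, spindle partners 6 to 9 lower and intraflagellar transport genes 4 to 7 lower. Kif26b, Kif9, Kif1b, Kif5c, Kif24, Kif2a, Kif20b and Kif23 kept their call in all 10 of these fits. Of these genes, Kif20b and Kif23 passed within neither range of replicate numbers. Median centring left 3 kinesin genes lower and 1 dynein or dynactin gene lower, and 1455 of all genes lower, against 1943 in the main fit. This setting aligns the median of all probe sets, which at an intensity of 17.5 to 20.1 lies below the filter level of 32. It is thus set by dim probe sets. The mean of probe sets gave 4 kinesin genes and 1 intraflagellar transport gene higher, with 1705 of 9095 genes higher. A level of 7, which tests 7583 genes, also gave 1 of that list, with 1625 genes higher. Without non-transgenic replicate 1 and transgenic replicate 6, 3 kinesin genes and 1829 of all genes fell, and Kif20b lost its call (adjusted p = 0.0514). Within samples numbered 1 to 6 the counts were 1207 higher and 706 lower for all genes, 1 kinesin gene lower, 1 dynein or dynactin gene lower, 2 adaptors higher, 4 spindle partners lower and 2 intraflagellar transport genes lower. Within 7 to 13 they were 1241 and 1022 for all genes, 5 kinesin genes higher, 1 dynein or dynactin gene lower, 1 adaptor higher and 1 lower, 4 spindle partners lower, and 1 intraflagellar transport gene higher and 1 lower. These ranges hold 5 samples each.

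Of the called kinesin genes, only Kif23 turned in sign, to -0.020 with the mean of probe sets. Of the genes that did not pass over all samples, these differences turned in sign, and the cause was not tested. Within 1 to 6, Kif13a was at -0.19, Kif16b 0.026, Kif17 0.029, Kif18b 0.16, Kif26a -0.046, Klc1 -0.025 and Klc4 0.058. Within 7 to 13, Kif13b was at -0.20, Kif3b 0.059, Kif6 -0.11, Kifc2 0.0021 and Kifc3 -0.19. Median centring gave Kif18b 0.029 and Klc4 0.00075, and quantile normalization gave Kif26a -0.021 and Klc1 -0.018. Klc1 was at -0.019 with the mean of probe sets. Without the 2 arrays together, Kif13b was at -0.15, Kifc3 -0.064 and Klc1 -0.091. With 1 sample left out, Kif13b ran from -0.12 to 0.19, Kif18b from -0.084 to 0.086, Kif26a from -0.0053 to 0.14, Kifc3 from -0.064 to 0.078 and Klc1 from -0.12 to 0.13.

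No paired analysis was possible because the groups share no replicate number. Probe sets near log2 5 limit what can be said of Klc3, Kif6 and Kif21b.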
